A study of Mus musculus with 24 samples.

Results

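Carbonyl reductase 1, encoded by Cbr1, and 9 genes of the NRF2 antioxidant pathway were followed in RNA sequencing data from mouse brown fat. The 10 genes were Cbr1, Cbr3, Nqo1, Gclc, Gclm, Hmox1, Txnrd1, Srxn1, Nfe2l2 and Keap1, taken as rows of the count table by their Ensembl identifiers. Of these, 9 were among the 12615 genes of the table and all 9 passed the filter on low counts that left 12485 genes. Nqo1 was not analysed here. Cbr1 was chosen on its own values, being higher under the BATdKO label at 8°C than in the other groups, so its levels are described without a test. The question was whether the other 8 genes follow Cbr1 across the groups and from mouse to mouse.

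The 24 libraries came from brown fat of 24 mice in 4 groups of 6, as separate samples of each group. All mice carried floxed alleles of both TBLR1 and TBL1 (TBLR1 fl/fl;TBL1 fl/fl), were of C57BL6/N background, were female by the labels but male in the paper, and had received tamoxifen. The labels give the age at tamoxifen as 5 years and the study's methods as 5 weeks, and housing began 3 weeks after the last injection. BATdKO mice were Ucp1CreERT2 positive, so that the inducible Cre recombinase was made under the promoter of Ucp1, a gene of brown adipocytes. Cre- mice were Ucp1CreERT2 negative controls with the same floxed alleles. Each genotype was held at 30°C for 4 days or, after stepwise cooling, at 8°C for 6 days by the labels (3 days in the methods). The groups are written Cre- 30°C, BATdKO 30°C, Cre- 8°C and BATdKO 8°C. Temperature went together with the days of housing. Library identifiers also ran in separate blocks for 30°C and 8°C, and what the blocks stand for is not given in the sources used here. Differences called cold below therefore cannot be told apart from these.

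Total counts per library ranged from 699703 to 11527643, with a median of 6644364.5, and the shallowest library was mouse 4 of Cre- 30°C. Levels are given as CPM, a gene's counts scaled to a common library size (edgeR, with TMM factors). The floxed genes did not fall under the BATdKO label, and at 8°C both were higher there. Tbl1xr1, which encodes TBLR1, was at 18.2 to 24.6 CPM in Cre- 8°C and at 33.7 to 44.3 CPM in BATdKO 8°C. Its log2 fold change was 0.92 (edgeR adjusted p 0.00348). Tbl1x, which encodes TBL1, had a log2 fold change of 0.39 at 8°C (edgeR adjusted p 0.0633). At 30°C the mice numbered 6 went against their groups. Tbl1xr1 was at 38.6 CPM in the library labelled Cre- and at 17.0 CPM in the library labelled BATdKO. Whether the 3′ tags lie outside the deleted part is not given in the sources used here, so the groups are named by their labels throughout, and values at 30°C that depended on both mice are given with and without them.

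Markers of brown adipocytes were present, with all 13 listed genes in the table. Ucp1, which encodes the uncoupling protein of thermogenic fat, ranged from 28.9 to 547.9 CPM in Cre- 30°C and from 84.7 to 412.2 CPM in BATdKO 30°C. At 8°C it ranged from 967.5 to 2075.8 CPM in Cre- and from 1330.6 to 2029.3 CPM in BATdKO mice, so its levels overlapped between the genotypes at each temperature. Of the 13 markers, 1 passed the edgeR test below for genotype at 8°C, downwards, and 4 had an unadjusted p under 0.05. Of all 12485 genes, 227 and 1153 did. At 30°C 0 markers passed and 4 had an unadjusted p under 0.05 (0 and 1303 of all genes), with a median log2 fold change of 0.43. The median share of the 13 in all counts was 0.179% in Cre- 30°C and 0.362% in BATdKO 30°C, against 0.399% and 0.455% at 8°C. Markers of hepatocytes were also present in every library: 9 of 9 were in the table, and together they made up 3.05 to 4.82% of all counts. Alb, the gene of serum albumin, had a group mean of 9303 to 11343 CPM. The hepatocyte share overlapped between BATdKO 8°C (3.05 to 4.44%) and Cre- 8°C (3.31 to 4.29%). In edgeR 0 of the 9 markers passed the test in any of the 5 comparisons below. For cold in BATdKO mice 3 had an unadjusted p under 0.05, beside 2145 of 12485 genes overall. Macrophage markers (11 of 12 in the table) made up 0.019 to 0.0328% of counts, and skeletal muscle markers (14 of 15) 0.000277 to 0.995%. At 8°C the muscle markers made up 0.000404 to 0.158% of counts in Cre- and 0.000277 to 0.0154% in BATdKO mice. For genotype at 8°C, 0 of 14 were called in edgeR and 12 had an unadjusted p under 0.05 (1153 of 12485 genes overall), with a median log2 fold change of -3.09. At 30°C these muscle marker counts were also 0 and 12 (1303 genes overall), with a median of -3.30. Their part in the results below was not tested. The pathway genes below are widely expressed, and how much of each gene's counts came from which cell type was not tested. In tissue RNA, fewer cells of a type and less RNA per cell cannot be told apart.

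NRF2, encoded by Nfe2l2, is a transcription factor that cells keep low through KEAP1, an adaptor that hands it to the CUL3 ubiquitin ligase. Oxidants and electrophiles modify KEAP1, NRF2 then builds up, pairs with small MAF proteins and binds antioxidant response elements near genes for glutathione synthesis, thioredoxin recycling, quinone reduction and haem breakdown. CBR1 is a cytosolic enzyme that uses NADPH to reduce aldehydes, quinones and prostaglandins, and CBR3 is its close relative encoded at the same locus. In brown fat, where cold-stimulated respiration yields reactive oxygen species and lipid peroxides, these enzymes belong to the machinery that clears them.

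To show whether the core of the antioxidant response element lies near the starts of these genes, RefSeq promoter windows (GRCm38.p6, from 250 bases before to 50 bases after a gene's start) were searched for TGACNNNGC on either strand. Of the 10 genes, 8 had a window, 10 windows in all, and Gclc and Hmox1 had no entry. The core was found in 4 windows, of Gclm, Txnrd1, Srxn1 and Nfe2l2, against 12.4% of all 32851 windows. It was not found in the windows of Cbr1, Cbr3, Nqo1 and Keap1, which says only that these letters are not within those bases. The stretches before the starts of Cbr1 (chr16:93607587-93607836, + strand) and Cbr3 (chr16:93682969-93683218, + strand) are shown because these related genes are compared below. The stretches of Gclm (chr3:122245393-122245461, + strand), Txnrd1 (chr10:82859084-82859152, + strand) and Nfe2l2 (chr2:75704865-75704913, - strand) are shown because they hold the core, written in capitals (in Gclm and Txnrd1 on the other strand). Each is written 5′ to 3′ on the strand of its gene.
Cbr1: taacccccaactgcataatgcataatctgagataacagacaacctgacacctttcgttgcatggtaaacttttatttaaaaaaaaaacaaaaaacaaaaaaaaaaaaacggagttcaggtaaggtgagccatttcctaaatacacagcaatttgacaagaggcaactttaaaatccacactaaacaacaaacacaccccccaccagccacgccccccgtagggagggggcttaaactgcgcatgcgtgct
Cbr3: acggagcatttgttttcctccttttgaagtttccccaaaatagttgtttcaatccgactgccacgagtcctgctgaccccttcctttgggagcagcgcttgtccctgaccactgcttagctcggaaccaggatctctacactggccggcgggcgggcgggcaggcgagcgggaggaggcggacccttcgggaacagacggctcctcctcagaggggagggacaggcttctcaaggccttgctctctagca
Gclm: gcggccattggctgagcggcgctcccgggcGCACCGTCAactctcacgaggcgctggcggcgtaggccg
Txnrd1: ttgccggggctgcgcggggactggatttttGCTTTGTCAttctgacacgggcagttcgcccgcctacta
Nfe2l2: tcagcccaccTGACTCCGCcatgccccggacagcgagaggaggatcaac

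Cbr1 lies on the + strand at chr16:93605853-93610505 (GRCm38), a protein-coding gene whose RefSeq start falls inside that span because other annotated transcripts begin upstream. Cbr1 was highest in BATdKO 8°C, where the lowest, median and highest of the 6 mice were 94.3, 120.5 and 139.2 CPM. In Cre- 8°C the corresponding levels were 63.5, 66.5 and 71.7 CPM. In Cre- 30°C they were 56.9, 62.6 and 69.7 CPM, and in BATdKO 30°C they were 50.9, 58.1 and 74.4 CPM. Every BATdKO 8°C mouse thus lay above all other mice, and the 3 other groups overlapped each other. Such a separation from all other libraries was seen for 20 of 12485 genes (0.16%), and among the 9 genes followed here for Cbr1 alone. Because Cbr1 was chosen on this pattern, the share is given for reference.

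By their means the groups ran in the order BATdKO 8°C, Cre- 8°C, Cre- 30°C and BATdKO 30°C. The last 3 means, at 67.1, 63.6 and 60.1 CPM, lay within 1 SD of their neighbours in that order. The mean of Cbr1 was 118.3 ± 20.3 CPM in BATdKO 8°C and 67.1 ± 3.82 CPM in Cre- 8°C (SD, n = 6 each). The log2 fold change of BATdKO over Cre- was 0.81 (SE 0.097) at 8°C, a ratio of 1.76, and -0.08 (SE 0.099) at 30°C. Cold changed Cbr1 by 0.09 (SE 0.098) on the log2 scale in Cre- mice and by 0.98 (SE 0.097) in BATdKO mice, a ratio of 1.97. The difference between the genotype effects at 8°C and 30°C was 0.89 (SE 0.14). These comparisons share groups, so that the high level in BATdKO 8°C enters 3 of them. Within BATdKO 8°C the spread was wide: mice 1, 3 and 4 lay between 135.1 and 139.2 CPM and mice 2, 5 and 6 between 94.3 and 105.9 CPM. Leaving out each mouse in turn kept the log2 fold change at 8°C between 0.76 and 0.87, a description because Cbr1 was chosen on these values.

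**Figure D1:**
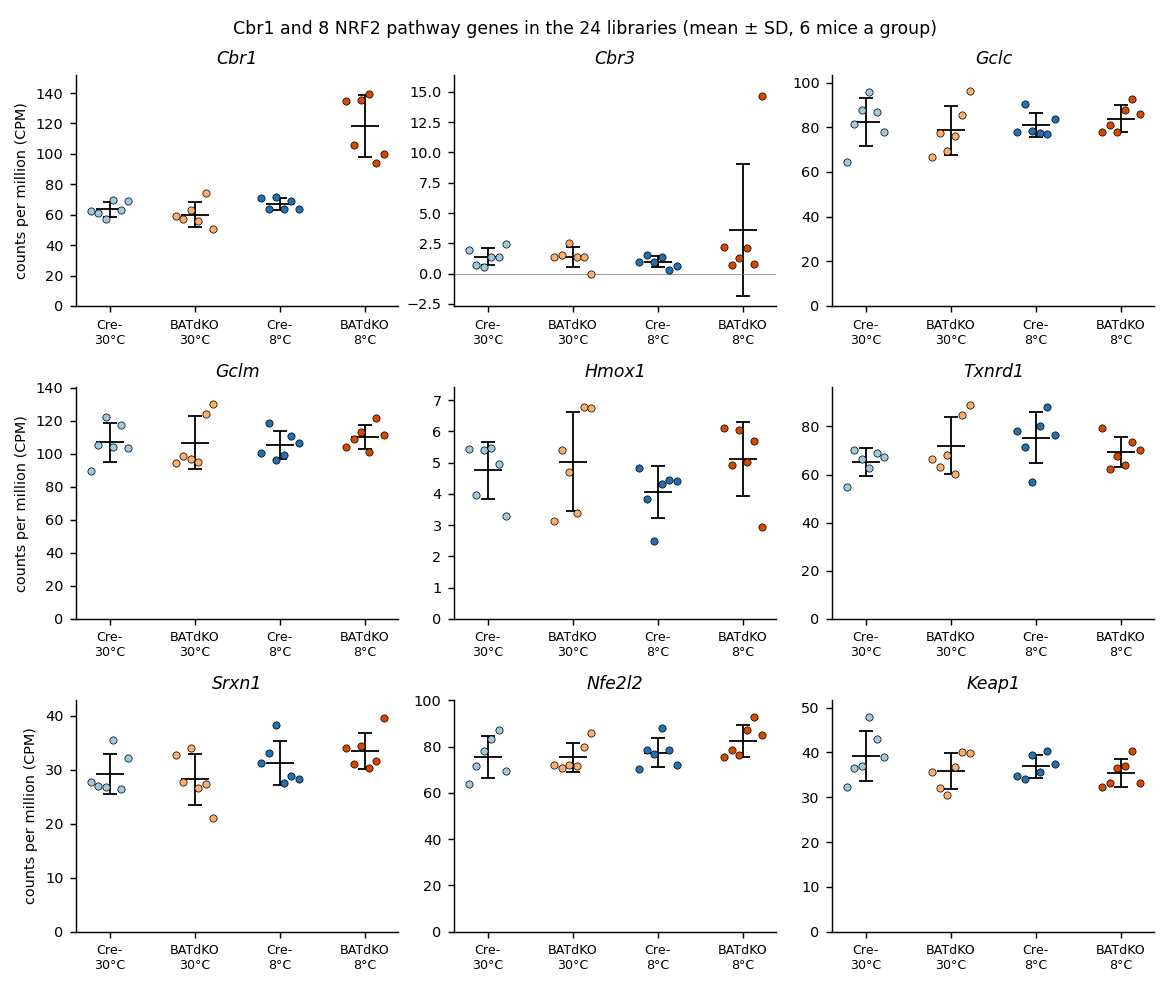
Level in CPM (y axis, linear, from 0 except for Cbr3, whose SD reaches below 0) of Cbr1 and the 8 other genes in each of the 24 mice, by group (x axis); points are mice, horizontal bars group means and whiskers the SD of 6 mice. Cbr1 in BATdKO 8°C, at 94.3 to 139.2 CPM, lies above every other mouse, 1 mouse of BATdKO 8°C stands apart for Cbr3 at 14.7 CPM, and the groups overlap for the other genes.

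Of the 8 other genes, 0 passed the threshold of an adjusted p under 0.1 (edgeR) for genotype at 8°C, where 1.82% of all genes tested did. Their median log2 fold change was 0.08, against -6.08e-05 for all genes. Cbr3 was the only one of them with an unadjusted p under 0.05, beside 1153 of 12485 genes overall. DESeq2 also called 0 of the 8, and the count was 0 under each of the 29 or 30 alternatives run for each of the 5 comparisons. The genes are taken by role below, first the neighbouring reductase, then glutathione synthesis, the thioredoxin system, haem breakdown and the regulators.

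Cbr3, the other carbonyl reductase of the locus, was near the limit of detection, with 0 to 25 counts per library outside BATdKO 8°C. Its lowest, median and highest levels were 0.688, 1.68 and 14.7 CPM in BATdKO 8°C and 0.295, 0.962 and 1.51 CPM in Cre- 8°C. The highest value came from mouse 6 with 75 counts, while the other BATdKO 8°C mice had 5 to 13 counts and overlapped every other group. The log2 fold change for genotype at 8°C was 1.81 (SE 0.66), with an adjusted p of 0.264. Without BATdKO 8°C mouse 6 it was 0.37 with an adjusted p of 0.954, and over all alternatives the adjusted p ranged from 0.148 to 0.954. The cold difference in BATdKO mice went from 1.34 (adjusted p 0.259) to -0.11 (adjusted p 0.979) when that mouse was left out. The Cbr3 values of that group were therefore set by 1 mouse.

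Gclc and Gclm encode the catalytic and the modifier subunit of glutamate-cysteine ligase, the rate-limiting enzyme of glutathione synthesis. Gclc was at 78.0 to 92.8 CPM in BATdKO 8°C and at 77.1 to 90.5 CPM in Cre- 8°C. Its log2 fold change at 8°C was 0.06 (95% confidence interval -0.12 to 0.24, adjusted p 0.935). Gclm was at 101.2 to 121.9 CPM in BATdKO 8°C and at 96.1 to 118.7 CPM in Cre- 8°C, with a log2 fold change of 0.06 (-0.12 to 0.25, adjusted p 0.918). For both subunits the genotypes overlapped. Their intervals lay below that of Cbr1, which was 0.62 to 1.01 around 0.81. Cbr1 was chosen on these values, so its difference may be overstated and the comparison is a description. Over the 4 groups the means of Gclc stayed between 78.6 and 83.9 CPM and those of Gclm between 105.3 and 110.1 CPM. Gclm shares exon sequence with the annotated genes Gm6061 on its own strand and Gm17494 on the other. Reads there could have been split, left out or counted for more than 1 gene.

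Txnrd1 encodes the cytosolic thioredoxin reductase, which uses NADPH to recycle thioredoxin. It was at 62.4 to 79.3 CPM in BATdKO 8°C and at 57.0 to 88.3 CPM in Cre- 8°C, with a log2 fold change of -0.12 (-0.33 to 0.09, adjusted p 0.815), opposite in sign to Cbr1. In Cre- mice Txnrd1 had the largest cold difference of the 8 genes apart from Cbr3, at 0.21 (SE 0.10), which did not pass (adjusted p 0.278). In BATdKO mice the cold difference was -0.05 (SE 0.10, adjusted p 0.852).

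Srxn1 encodes sulfiredoxin, which repairs over-oxidised peroxiredoxins. Its lowest, median and highest levels were 30.4, 32.8 and 39.5 CPM in BATdKO 8°C, 27.6, 30.1 and 38.4 CPM in Cre- 8°C, 21.0, 27.5 and 34.0 CPM in BATdKO 30°C and 26.4, 27.4 and 35.5 CPM in Cre- 30°C. All 4 groups overlapped. The log2 fold change for genotype at 8°C was 0.10 (-0.11 to 0.32, adjusted p 0.868). The cold difference in BATdKO mice was 0.25 (0.03 to 0.46), with an unadjusted edgeR p of 0.0255 and an adjusted p of 0.205, and over the alternatives the adjusted p ranged from 0.116 to 0.433.

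Hmox1 encodes haem oxygenase 1, which breaks down haem and is strongly inducible in many cells. It was counted by few reads, 4 to 69 per library. Its level was 2.93 to 6.10 CPM in BATdKO 8°C and 2.49 to 4.82 CPM in Cre- 8°C. Of the BATdKO 8°C mice, 5 lay between 4.92 and 6.10 CPM and mouse 6 at 2.93 CPM. The log2 fold change was 0.30 (-0.12 to 0.73, adjusted p 0.739), and 0.42 (adjusted p 0.587) without that mouse. The interval reaches 0.73 and so overlaps, at this depth, that of Cbr1 (0.62 to 1.01).

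Nfe2l2, the gene of NRF2 itself, was at 75.4 to 92.9 CPM in BATdKO 8°C and at 70.5 to 88.3 CPM in Cre- 8°C, with a log2 fold change of 0.09 (-0.07 to 0.26, adjusted p 0.819). Keap1 was at 32.2 to 40.2 CPM in BATdKO 8°C and at 34.0 to 40.3 CPM in Cre- 8°C, with a log2 fold change of -0.06 (-0.23 to 0.12, adjusted p 0.935). Levels of NRF2 protein are set mainly after translation, which these counts do not measure. Keap1 overlaps Gm16754 on the other strand, and whether the counting used strand is not given in the sources used here.

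**Figure D2:**
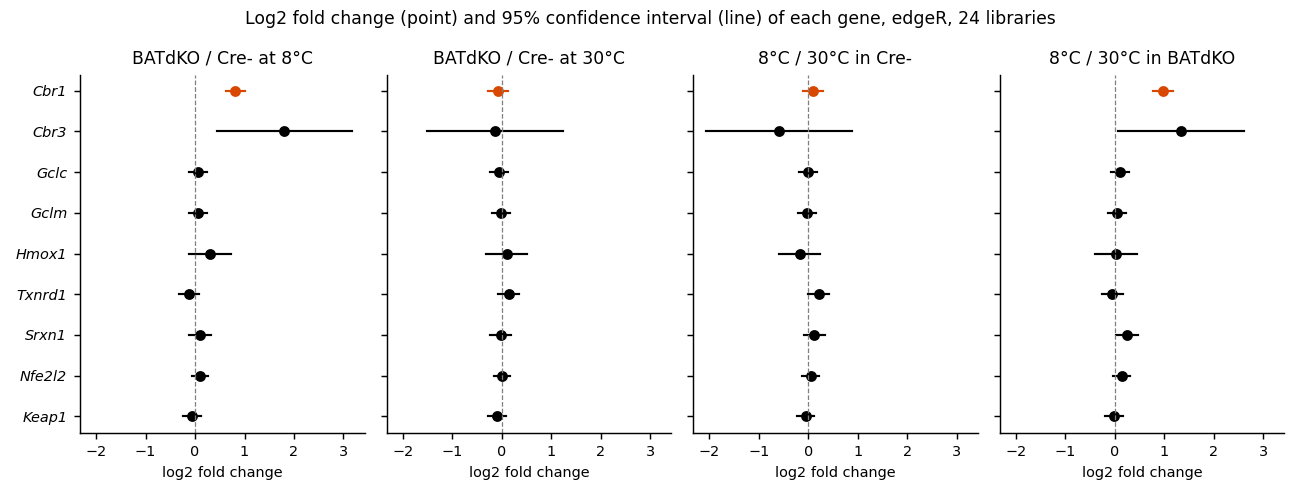
Log2 fold change (x axis, points) with 95% confidence interval (lines) of the 9 genes (y axis) in 4 comparisons, 1 panel each, from the edgeR fit over 24 libraries; Cbr1, drawn in orange, was chosen on this pattern. Cbr1 stands at 0.81 for genotype at 8°C and 0.98 for cold in BATdKO mice, while the intervals of the other genes include 0 except those of Cbr3 in these 2 panels and Srxn1 for cold in BATdKO mice.

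In the other comparisons the count was again 0 of 8. For genotype at 30°C, 0% of all genes passed (0 of 12485), 1303 genes had an unadjusted p under 0.05, and 0 of the 8 genes were among them. With both mice numbered 6 at 30°C left out, 500 genes passed and the count of the 8 stayed at 0. Cbr1 then had a log2 fold change of -0.00185 at 30°C. The cold comparison in Cre- mice called 9.15% of all genes, and 2327 of 12485 genes had an unadjusted p under 0.05, with 0 of the 8 among them. The cold comparison in BATdKO mice called 7.07%, and 2145 of 12485 genes had an unadjusted p under 0.05, with 2 of the 8 among them, Cbr3 and Srxn1. The difference between genotype effects at both temperatures called 0.0961% of all genes, 12 in number. There 0 of the 8 genes had an unadjusted p under 0.05, beside 1005 genes overall. For that difference the median of the 8 genes was 0.10 on the log2 scale, with Txnrd1 lowest at -0.26 (SE 0.15, adjusted p 0.66) and Cbr3 highest at 1.94 (SE 0.95, adjusted p 0.624), the latter again resting on mouse 6 (0.49 without it).

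Whether the genes followed Cbr1 from mouse to mouse was asked after the mean of each group had been subtracted from the log2 CPM values, a measure that the choice of Cbr1 by group did not use. Over the 24 mice, 0 of the 8 correlations passed an adjusted p of 0.1 (two-sided permutation test, 100000 shuffles of mice within groups, adjusted over the 8). The highest was that of Srxn1, with r = 0.31 (permutation p 0.16, adjusted p 0.662) and rho = 0.39 (permutation p 0.0605, adjusted p 0.484). Cbr3 had r = 0.18 and Hmox1 r = 0.16, and Keap1 had r = 0.12. Gclm, Nfe2l2 and Gclc had negative coefficients of -0.24, -0.23 and -0.21, and Txnrd1 was at -0.00425. Permutation p-values of Spearman's rho ranged from 0.0605 to 0.964 and those of r from 0.16 to 0.985.

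Leaving out the 2 mice whose Cbr1 lay farthest from the median, mouse 5 of BATdKO 30°C and mouse 5 of BATdKO 8°C, gave r = 0.36 for Srxn1, 0.08 for Cbr3 and -0.40 for Gclm. Single mice moved the count of 0. Without BATdKO 8°C mouse 6, Cbr3 reached r = 0.54 and Srxn1 r = 0.46, each with an adjusted p of 0.0914 (permutation test). Without BATdKO 30°C mouse 6, r fell to 0.00616 for Cbr3 and to 0.17 for Srxn1. Without BATdKO 30°C mouse 5, Gclm reached r = -0.50 with an adjusted p of 0.0456. The total count of a library, taken the same way, had r = -0.35 with Cbr1, and its part in these values was not tested.

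**Figure D3:**
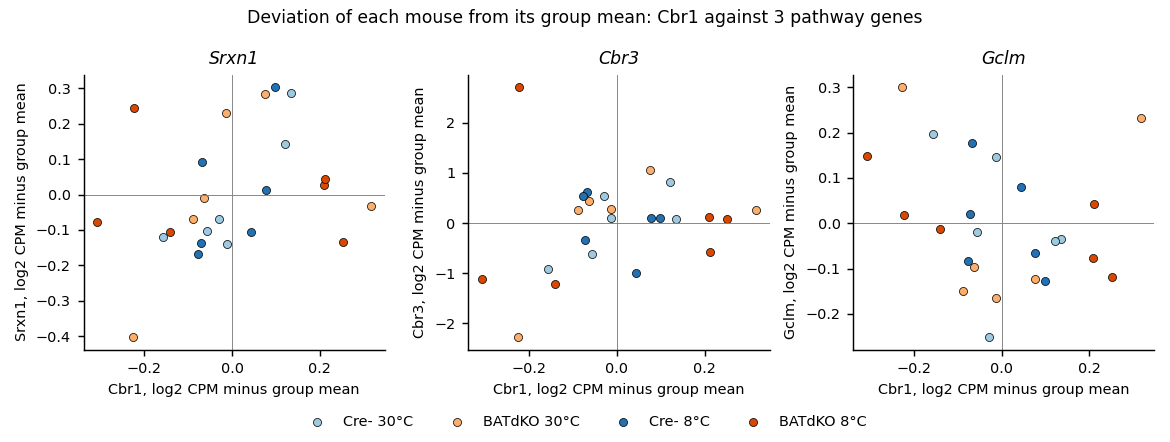
Deviation of each mouse from its group mean in log2 CPM, Cbr1 on the x axis against Srxn1, Cbr3 and Gclm on the y axes; points are the 24 mice, coloured by group. The coefficients are 0.31 for Srxn1, 0.18 for Cbr3 and -0.24 for Gclm, and 1 BATdKO 8°C mouse lies far above the rest for Cbr3.

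Beyond the genes named so far, 72 genes of 10 lists cover NRF2 partners, glutathione enzymes, NADPH supply, detoxification and other antioxidant enzymes, and 68 of them were tested. For genotype at 8°C, 1 rose and 3 fell, 4 of 68, beside 227 of 12485 genes overall. At an unadjusted edgeR p under 0.05 were 14 of the 68, 3 upwards and 11 downwards. Of all genes 1153 were, 470 upwards and 683 downwards. The median log2 fold change of the 68 was 0.02. Glrx, the gene of glutaredoxin, which reduces protein-glutathione disulfides, rose. Its lowest, median and highest levels were 15.5, 17.9 and 19.7 CPM in BATdKO 8°C and 7.29, 10.4 and 11.3 CPM in Cre- 8°C. The log2 fold change was 0.81 (SE 0.12, adjusted p 0.000305). Glrx was the only 1 of the 68 list genes whose BATdKO 8°C mice all lay above every other mouse, beside 20 of 12485 genes overall (0.16%).

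The 3 genes that fell act in sugar metabolism and peroxide removal. Taldo1, the transaldolase of the pentose phosphate pathway, was at 124.8 to 175.0 CPM in BATdKO 8°C and at 189.5 to 311.0 CPM in Cre- 8°C. It fell by 0.67 on the log2 scale (SE 0.12, adjusted p 0.00253). Akr1b3, an aldose reductase that also uses NADPH, fell by 0.71 (SE 0.14, adjusted p 0.00679), from a mean of 22.5 ± 2.79 to 14.0 ± 2.41 CPM (SD, n = 6). Gpx3, the secreted glutathione peroxidase, fell by 1.21 (SE 0.28, adjusted p 0.0253), from 260.5 ± 66.7 to 112.9 ± 26.4 CPM (SD, n = 6).

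Among the list genes that share a function with the members, the 12 glutathione transferases had 0 called at 8°C, their log2 fold changes spanning -0.23 to 0.18. Of these, Gstp1 and Gstp2 had nearly the same level, with means of 1622.4 and 1618.7 CPM in BATdKO 8°C. They could hold the same reads, which was not tested. None of the 12 had an unadjusted p under 0.05, beside 1153 of 12485 genes overall. The 8 NRF2 partners and regulators had 0 called, from -0.85 to 0.04, and 1 with an unadjusted p under 0.05. Of the 3 other carbonyl reductases tested, 0 were called at 8°C. Cbr2 had the highest value of the 3 at 0.70, with 4.38 to 6.53 CPM in BATdKO 8°C and 1.64 to 4.87 CPM in Cre- 8°C. Cbr2 was called upwards when only the groups compared were fitted. Gm5678, whose transcript resembles that of Cbr1, was not counted in this list and is described below. Iron and haem genes, efflux transporters, and thioredoxin and peroxiredoxin genes also had 0 called in edgeR, while DESeq2 called Prdx6 upwards at 8°C. At 30°C, 0 of the 68 passed in edgeR, 11 had an unadjusted p under 0.05 (1303 of 12485 genes overall) and DESeq2 called 1, Sesn2. With both mice numbered 6 left out, 4 did, Sesn2 upwards and Akr1b3, Blvra and Gstm2 downwards. The difference between genotype effects called 0 of 68 in edgeR (12 of 12485 genes overall). In DESeq2 it called 2 (51 genes overall), Prdx6 upwards and Nfe2l1 downwards.

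For cold in Cre- mice 14 of 68 list genes passed, 10 upwards and 4 downwards, beside 1143 of 12485 genes overall (9.15%). The genes called came from 7 of the 10 lists. In the NADPH supply list, 3 of 6 rose in Cre- mice: Pgd by 1.28 (SE 0.16, adjusted p 3.65e-06), Taldo1 by 1.00 (SE 0.12, adjusted p 3.27e-06) and Me1 by 1.02 (SE 0.12, adjusted p 1.26e-06) on the log2 scale. Pgd and Me1 encode dehydrogenases that yield NADPH, and Taldo1 acts in the non-oxidative branch of the same sugar pathway as Pgd. The paper lists Me1 among genes that cold raised in Cre- mice and that were lower in BATdKO mice at 8°C, after removing outlying mice. It words its cutoff for these genes as a p under 0.05 and used fewer mice a group. Here Me1 was lower by 0.32 for genotype at 8°C (SE 0.11, unadjusted edgeR p 0.00824, adjusted p 0.222). Its unadjusted p lay under 0.05, and it did not pass the threshold used here, an adjusted p under 0.1. It was called downwards when only the groups compared were fitted. Of the 10 other antioxidant enzymes, 4 rose, Sod3, Sod2, Txnrd2 and Txnrd3, and Gpx3 fell. Txnrd3 was close to the threshold (adjusted p 0.0956) and was not called by DESeq2, without the filter, with robust dispersion, with only the groups compared or without both mice numbered 6 at 30°C. Nfe2l1, a relative of Nfe2l2, rose by 0.50 (SE 0.10, adjusted p 0.00187) and Cul3 by 0.35 (SE 0.10, adjusted p 0.0408). Sesn2, encoding the stress protein sestrin 2, rose by 0.76 (SE 0.21, adjusted p 0.0241). Gstm2, Blvra and Cbr2 fell, with adjusted p-values of 0.0425, 0.0832 and 0.0417.

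In BATdKO mice cold called 10 of 68, 7 upwards and 3 downwards, beside 883 of 12485 genes overall (7.07%). The genes called came from 6 of the 10 lists. Pgd, Taldo1 and Me1 rose again, by 0.82, 0.49 and 0.54 on the log2 scale, with adjusted p-values of 0.00129, 0.0154 and 0.00427. Glrx rose by 0.70 (SE 0.12, adjusted p 0.000649), Sod2 by 0.66 (SE 0.18, adjusted p 0.0348), Esd by 0.33 (SE 0.11, adjusted p 0.0837) and Prdx6, a peroxiredoxin, by 0.25 (SE 0.070, adjusted p 0.0349). Gpx3 fell by 2.15 (SE 0.29, adjusted p 2.65e-05), Gpx4 by 0.34 (adjusted p 0.0322) and Gstm5 by 0.41 (adjusted p 0.0689). Whether the cold response of any list gene differed between genotypes was tested by the difference between genotype effects. It called 0 of 68 in edgeR and 2 in DESeq2, beside 12 and 51 of all genes. At an unadjusted edgeR p under 0.05 were 16 of the 68, 5 upwards and 11 downwards. Of all 12485 genes 1005 were, 429 upwards and 576 downwards. Without both mice numbered 6 at 30°C, Esd was at 0.23 (adjusted p 0.172) and Gstm5 at -0.38 (adjusted p 0.125), and neither was called. With those mice left out, cold called 11 list genes upwards and 4 downwards in Cre- mice and 6 upwards and 2 downwards in BATdKO mice. Markers also moved with cold. In Cre- mice 6 of 13 brown adipocyte markers, 5 of 8 endothelial markers and 4 of 4 haemoglobin genes rose, beside 695 of 12485 genes overall. There 1 brown adipocyte, 2 skeletal muscle and 1 progenitor and stromal marker fell, beside 448 genes overall. In BATdKO mice 6 of 13, 2 of 8 and 4 of 4 of these markers rose (470 genes overall), and 1 brown adipocyte and 2 progenitor and stromal markers fell (413 overall). Their part in the values of the list genes was not tested.

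**Figure D4:**
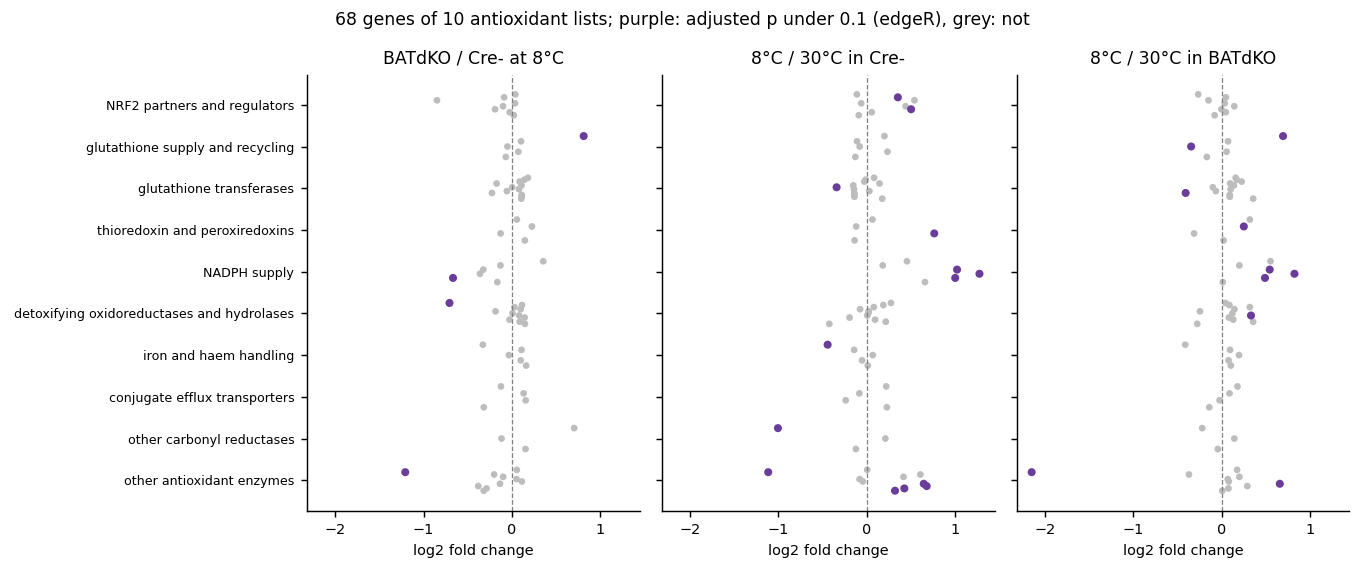
Log2 fold change (x axis) of the 68 list genes, 1 row for each of the 10 lists (y axis), for genotype at 8°C and for cold in each genotype; purple points passed an adjusted p under 0.1 in edgeR and grey points did not. For genotype at 8°C, 4 genes passed, Glrx at 0.81 being the only one above 0, and cold moved 14 genes in Cre- and 10 in BATdKO mice, among them 3 of NADPH supply upwards in each.

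Genes whose level ran most like Cbr1 over the 24 libraries were not members of the pathway lists. By Pearson's r of log2 CPM they were Dgat2 (0.88), Gm45716 (0.86), Epas1 (0.84), Cyb5b (0.83) and Ighm (0.81). Among the members the highest coefficient over the libraries was 0.51, for Srxn1, and these coefficients carry the group difference that chose Cbr1. Dgat2, which encodes an enzyme of triglyceride synthesis, was at 521.5 ± 76.5 CPM in BATdKO 8°C and at 270.2 ± 17.5 CPM in Cre- 8°C (SD, n = 6). After the group means were subtracted, the closest genes were Cdo1 (0.74), Ppp1r3b (0.73), Mrps16 (0.72), Gtf2h5 (0.67) and Pmm1 (0.67). Cdo1 encodes cysteine dioxygenase, which degrades cysteine, the substrate that glutathione synthesis also uses. The coefficients are descriptions over 24 libraries that share depth and composition, and they were the highest of all genes tested.

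Around Cbr1 on chromosome 16, 24 other genes are annotated within 500 kb, of which 6 were in the table: Setd4, Gm5678, Cbr3, Dop1b, Morc3 and Cldn14. For genotype at 8°C, 0 of the 6 passed in edgeR, and 2 of them, Cbr3 and Gm5678, had an unadjusted p under 0.05 (1153 of 12485 genes overall). Gm5678, which lies 17.6 kb downstream on the same strand, came nearest to Cbr1, with 2.83 ± 1.30 CPM in BATdKO 8°C and 1.36 ± 0.78 CPM in Cre- 8°C (SD, n = 6). Its log2 fold change was 0.98 (SE 0.31, adjusted p 0.156), and cold raised it in BATdKO mice by 0.94 (SE 0.31, adjusted p 0.0798). Its transcript matched that of Cbr1 at 90.7% of 939 aligned bases, and 48 of its 890 windows of 50 bases occurred in the Cbr1 transcript without a mismatch, so some of its 2 to 22 counts per library could be reads of Cbr1, which was not tested. Cbr3 matched Cbr1 at 79.6% of 828 aligned bases and shared 1 of 1121 such windows. Setd4, whose start lies next to that of Cbr1 on the opposite strand, had a log2 fold change of 0.37 (SE 0.24, adjusted p 0.726). Dop1b, Morc3 and Cldn14 had values of -0.09, -0.24 and 0.29. Cold lowered Morc3 in BATdKO mice, where it fell by 0.52 on the log2 scale (SE 0.15, adjusted p 0.0378).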

How the data were processed

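Gene counts of 24 brown fat libraries, made with the QuantSeq 3′ mRNA-Seq kit, which yields a tag from the 3′ end of each transcript, were used as deposited by the authors: they trimmed reads with BBDuk, aligned them with STAR to GRCm38 and summed raw counts per gene with Rsubread. Strand use and annotation release are not given in the sources used here. Ensembl identifiers were matched to symbols for 12608 of 12615 genes. Groups came from the labels' genotype and treatment. From the counts, edgeR (version 4.0.16, R 4.3.3) fitted quasi-likelihood models with TMM scaling, 1 mean per group over all 24 libraries, after filterByExpr removed 130 genes. P-values were Benjamini-Hochberg adjusted over all 12485 genes, with a threshold of 0.1 as in the study's methods. SE values were derived from the F statistics, and Cbr1 received no p-value. The fitting was tested on simulated data. Correlations used log2 CPM with a prior count of 2. Total counts were 699703 to 11527643 per library, and the SE of the log2 fold change at 8°C was 0.08 to 0.21 for the members other than Cbr3.

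Alternatives were DESeq2 (1.42.0), RLE scaling, no filter, robust dispersion, fits of only the groups compared, and leaving out each mouse. Leaving out both mice numbered 6 at 30°C was added after seeing the data. Members and gene lists were chosen with earlier results of these data known. Named genes were all members, called list genes (at most 3 of smallest p per list and comparison), the 5 genes most like Cbr1 by each measure and genes within 500 kb of it. Other called list genes are named only to spell out a count. The study removed outlying mice without naming them, so all mice were kept. Libraries of a group differed by more than sampling noise (chi-square per degree of freedom at least 2.607 for every pair).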

Additional observations from a re-analysis of the deposited data

Results flagged for a closer look

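Within a group of 6 mice, 4 values stood apart from the others by Dixon's test among the 52 combinations of group and measure examined; chance flags about 1 in 20 groups. Cbr3 was at 14.7 CPM in mouse 6 of BATdKO 8°C, the highest of its group, and Hmox1 was at 2.93 CPM in the same mouse, the lowest. Tbl1xr1 was at 38.6 CPM in mouse 6 of Cre- 30°C, the highest of its group. Tbl1x, the gene of TBL1, was at 39.7 CPM in mouse 6 of BATdKO 30°C, the lowest of its group.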

How the results depend on the processing

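For 2798 combinations of a result and an alternative, 74 changed a call or moved a count by more than 1.5 times, 0 of the called values reversed, and 69 values that were not called changed sign. The count of the 8 members called was 0 throughout. Of the 68 list genes, the number called for genotype at 30°C, 0 in edgeR, was 1 in DESeq2, 4 without both mice numbered 6 at 30°C, and 0 to 2 with single mice left out. For genotype at 8°C it was 4, and 9 when only the groups compared were fitted. For the difference between genotype effects it was 0, 2 in DESeq2, and 0 to 1 with single mice left out. The number of members alike to Cbr1 within groups was 0, and 0 to 2 with single mice left out.

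Counts over all genes moved more. For genotype at 8°C, 227 genes passed, 477 with only the groups compared and 138 without mouse 5 of BATdKO 8°C. For genotype at 30°C, 0 passed, 90 in DESeq2, 369 without mouse 6 of Cre- 30°C and 500 without both mice numbered 6. For the difference between genotype effects, 12 passed, 51 in DESeq2, 21 with robust dispersion, 44 without both mice, and 7 to 37 with single mice left out. For cold in BATdKO mice, 883 passed, and 574 without mouse 4 of BATdKO 8°C. The cause was not tested. Of the list genes named by the rule (at most 3 per list and comparison), Esd lost its call in 12 alternatives, Blvra and Gstm5 in 8 each, Cbr2 in 3, Cul3 and Prdx6 in 2 each and Gstm2 in 1. Outside the rule, Txnrd3 lost its call for cold in Cre- mice in 5 of the 6 alternatives that left out no single mouse.

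No paired analysis was possible because the mouse numbers were given in accession order and tie no mice of different groups to each other. Low counts limit Cbr3, Hmox1 and Gm5678, and the library of 699703 counts limits Cre- 30°C.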
